A study of Mus musculus with 6 samples.

Results

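Coch, Cwh43, Acbd7, Cyp2j11, Ecrg4 and Penk are 6 genes picked by symbol for their very large falls in the mouse oviduct when Mettl3 is labelled as deleted. They are 6 of the 55363 gene symbols in the deposited tables, and all 6 passed the filter on low values with which 15438 symbols were tested. Whole oviducts were taken on gestational day 3 from mated females aged 6 to 8 weeks, with the day of the vaginal plug counted as the first day. The study compared 3 libraries labelled Mettl3 f/f, the usual notation for alleles flanked by loxP sites, with 3 labelled Mettl3 d/d, the usual notation for deleted alleles. Mettl3 encodes the catalytic subunit of the enzyme that places the m6A mark, N6-methyladenosine, in RNA. The sources used here do not give the Cre driver, the cells in which it acts, the deleted exons or the strain, nor whether each library came from 1 animal.

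The fall itself chose these genes, so the difference between the groups is given below as a description, with no test. What the choice did not use is how the genes vary among libraries of the same group, how they stand to the genes that mark regions of the tract, what their relatives and chromosomal neighbours do, and what their sequences hold. The values are FPKM, which counts fragments relative to transcript length and to library size, so levels of different genes are compared per length. Where 3 values of a group are given, they are in the order of the replicate numbers.

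The 6 genes belong to no single pathway. Coch encodes cochlin, a secreted matrix protein best known from the inner ear, where a fragment of it takes part in innate defence. Penk encodes proenkephalin, the precursor that is cut into the opioid peptides called enkephalins, and Ecrg4 encodes a small secreted precursor also called augurin. Acbd7 encodes a small protein of the family that binds acyl-CoA esters, and Cyp2j11 a cytochrome P450 of the family whose better studied members oxidise arachidonic acid to epoxides. Cwh43 is named after the budding yeast gene for remodelling of the lipid in glycosylphosphatidylinositol (GPI) anchors, which hold some proteins on the cell surface.

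The oviduct is itself regional. Towards the ovary its lining is rich in multiciliated cells, and towards the uterus its wall is thick with smooth muscle. Posterior Hox genes are staggered along the female tract, with Hoxa9 in the oviduct, Hoxa10 and Hoxa11 in the uterus and Hoxa13 in the cervix and upper vagina.

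The start regions of 4 of the genes are shown so that genes picked for the same fall can be compared at their starts. RefSeq windows on GRCm38.p6 were found for 5 of the 6 genes, and each sequence runs, 5′ to 3′, from 250 to 11 bases before the annotated start. Capitals mark TGTTCT or its reverse complement AGAACA, the core bound by progesterone and glucocorticoid receptors, and TTTAT or its reverse complement ATAAA, a core bound by posterior Hox proteins, on either strand.
Coch (chr12:51593091-51593330, plus strand): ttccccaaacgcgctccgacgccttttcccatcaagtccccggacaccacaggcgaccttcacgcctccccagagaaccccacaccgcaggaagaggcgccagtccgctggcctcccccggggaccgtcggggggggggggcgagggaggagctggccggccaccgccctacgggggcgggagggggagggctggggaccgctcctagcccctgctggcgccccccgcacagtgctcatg
Cwh43 (chr5:73405828-73406067, plus strand): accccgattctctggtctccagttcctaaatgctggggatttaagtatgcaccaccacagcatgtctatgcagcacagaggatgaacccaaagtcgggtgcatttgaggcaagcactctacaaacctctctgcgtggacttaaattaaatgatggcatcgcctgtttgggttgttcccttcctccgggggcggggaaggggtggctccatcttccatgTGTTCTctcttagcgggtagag
Cyp2j11 (chr4:96348691-96348930, minus strand): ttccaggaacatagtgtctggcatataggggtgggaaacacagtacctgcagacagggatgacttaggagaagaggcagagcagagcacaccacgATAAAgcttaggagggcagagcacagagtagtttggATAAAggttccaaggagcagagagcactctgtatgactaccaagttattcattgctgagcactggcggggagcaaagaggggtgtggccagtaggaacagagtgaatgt
Ecrg4 (chr1:43730352-43730591, plus strand): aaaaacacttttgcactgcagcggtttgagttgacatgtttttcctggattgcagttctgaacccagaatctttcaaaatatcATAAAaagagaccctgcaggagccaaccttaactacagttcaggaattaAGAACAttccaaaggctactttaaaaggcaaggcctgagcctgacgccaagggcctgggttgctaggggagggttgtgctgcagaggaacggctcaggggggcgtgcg
The steroid receptor core was in the windows of 2 of the 5 genes, Cwh43 (its first base 32 bases before the start) and Ecrg4 (118 bases before it). It was in 15.5% of all 32851 windows of this length in the table. The Hox core was in Cyp2j11 and Ecrg4, where 36.6% of all windows held it, and in Ecrg4, which held both cores, they did not overlap. The windows of Coch and Acbd7 held neither. The windows differed widely in base composition, from 48.8% G and C in Ecrg4 to 73.8% in Coch. These matches describe letters and show no binding.

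The transcripts differed as well in GGACT, the commonest form of the sequence that the Mettl3 enzyme methylates. In the longest coding transcript of each gene the sequence occurred 0 times in Ecrg4 (902 nt), once in Coch (2681 nt), where the density was 0.373 per kilobase, and 3 times in Penk (1449 nt), where it was 2.07 per kilobase. Cwh43 and Cyp2j11 had 3 each, at 1.10 and 1.56 per kilobase, and the short Acbd7 transcript (534 nt) had 1, at 1.87 per kilobase. The median over 13495 tested coding genes was 1.06 per kilobase, and 7.60% of them had none. The 6 genes lay on both sides of that median.

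Depth was alike across the 6 libraries. The lowest steps of the FPKM values implied 16623001 to 17764498 fragments per library. Mettl3 was at 11.8, 12.1 and 13.2 FPKM in the f/f libraries and at 19.8, 20.3 and 24.5 in the d/d libraries. It was thus higher in the libraries labelled d/d (log2 difference 0.75, SE 0.12, limma adjusted p = 0.0145; 0.0688 without f/f replicate 2, and from 0.0140 over all alternatives). A level per gene cannot show a missing exon, so the genotype rests on the labels, and f/f and d/d below mean libraries so labelled. In whole tissue, fewer cells of a type and less RNA per cell cannot be told apart.

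Ecrg4 was the most abundant of the 6 genes per length in f/f, while in d/d the mean of Penk was higher. Its gene (ENSMUSG00000026051; chromosome 1, 43730602 to 43742578, plus strand of GRCm38) has 1 annotated transcript of 4 exons. It was at 464, 237 and 332 FPKM in the f/f libraries and at 27.8, 22.7 and 39.8 in the d/d libraries. All 3 f/f libraries lay far above all 3 d/d libraries, and f/f replicate 1 was the highest. The mean went from 344 ± 114 to 30.1 ± 8.81 FPKM (SD, n = 3 each), an 11.4-fold lower level in d/d. The d/d values still rested on 244 to 435 implied fragments, so the transcript was still measured there.

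Penk (ENSMUSG00000045573; chromosome 4, 4133531 to 4138819, minus strand) was next in mean level in f/f and had the mildest fall. It was at 190, 163 and 222 FPKM in the f/f libraries and at 57.3, 22.2 and 29.6 in the d/d libraries. The f/f libraries were close to each other, and d/d replicate 1 was the highest d/d library without reaching any f/f value. The mean went from 192 ± 29.3 to 36.4 ± 18.5 FPKM (SD, n = 3 each), 5.27-fold lower in d/d.

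Coch (ENSMUSG00000020953; chromosome 12, 51593341 to 51605771, plus strand) had the largest fall of all 15438 symbols tested on the log2(FPKM + 1) scale. It was at 26.6, 123 and 110 FPKM in the f/f libraries and at 2.29, 0.410 and 0.674 in the d/d libraries. The groups did not overlap, and in both of them replicate 1 stood apart, as the lowest f/f and the highest d/d library. The mean went from 86.6 ± 52.3 to 1.13 ± 1.02 FPKM (SD, n = 3 each), a 76.9-fold difference that was 160-fold without d/d replicate 1.

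Acbd7 (ENSMUSG00000026644; chromosome 2, 3336168 to 3340993, plus strand) was at 10.5, 49.8 and 67.5 FPKM in the f/f libraries. In the d/d libraries it was at 0.224, 1.12 and 0.441. Here replicate 1 was the lowest library of both groups. The mean went from 42.6 ± 29.1 to 0.594 ± 0.466 FPKM (SD, n = 3 each), a 71.7-fold difference that was 128-fold without d/d replicate 2. The longest transcript is 534 nt, so d/d levels this low rest on few fragments, and both their order and these folds are uncertain.

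Cwh43 (ENSMUSG00000029154; chromosome 5, 73406075 to 73453435, plus strand) was at 20.5, 43.0 and 41.7 FPKM in the f/f libraries. In the d/d libraries it was at 1.18, 0.351 and 0.910. The spread within f/f was smaller than for Coch or Acbd7, with replicate 1 again the lowest. The mean went from 35.0 ± 12.6 to 0.813 ± 0.422 FPKM (SD, n = 3 each), 43.1-fold lower in d/d.

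Cyp2j11 (ENSMUSG00000066097; chromosome 4, 96294508 to 96348662, minus strand, 1 annotated transcript of 9 exons) went to the limit of detection. It was at 2.65, 23.8 and 22.9 FPKM in the f/f libraries, while d/d replicate 1 had 0.0700 and the other d/d libraries were listed at 0. The value of d/d replicate 1 corresponds to 2.00 implied fragments, against 78.2, 701 and 650 in the f/f libraries. At 3 fragments the level would be 0.109 FPKM in d/d replicate 2 and 0.107 in d/d replicate 3. An exact 0 in these tables can also be a failed estimate, so no fold is given. Cyp2j genes resemble each other closely, and reads can be split between them in a way the tables do not show.

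**Figure D1:**
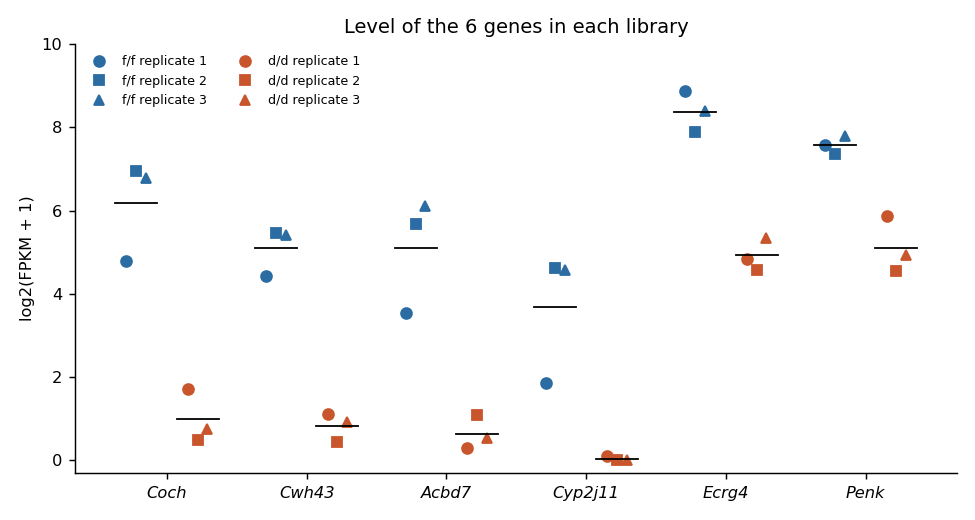
Level of each gene in each library as log2(FPKM + 1), with f/f libraries in blue, d/d libraries in orange, 1 marker shape per replicate number and a black line at the group mean. The 3 f/f values lie above the 3 d/d values for all 6 genes, and f/f replicate 1 (blue circle) lies far below the other f/f libraries for Coch, Acbd7 and Cyp2j11.

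All 6 genes were lower in every d/d than in every f/f library, where 17.4% of the symbols tested were, and 18.1% were higher in every d/d library. All 6 were also among the 768 symbols called lower at a limma adjusted p under 0.05, which is 4.97% of those tested, with 6.04% called higher. Both counts follow from how the genes were picked. On the log2(FPKM + 1) scale the differences, d/d minus f/f, were -5.19 for Coch (SE 0.61), -4.46 for Acbd7 (SE 0.64), -4.27 for Cwh43 (SE 0.32), -3.66 for Cyp2j11 (SE 0.72), -3.46 for Ecrg4 (SE 0.29) and -2.47 for Penk (SE 0.33). By size of fall they had ranks 1, 4, 5, 13, 16 and 55. The list is thus not an unbroken top of the ranking, and no threshold separates it from the genes between. Npl, an enzyme of sialic acid breakdown, had rank 3, between Coch and Acbd7, with a difference of -4.62.

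The genes also differed in what was left in d/d. Ecrg4 and Penk, the most abundant in f/f, kept means of 30.1 and 36.4 FPKM in d/d, whereas Coch, Cwh43 and Acbd7 ended near 1 FPKM and Cyp2j11 at or near 0. The log2(FPKM + 1) scale understates differences that end so low. With a pseudocount of 0.1 in place of 1, Cyp2j11 had the largest difference of the 6 (-6.59) and Coch the next (-6.18).

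Within f/f the genes fell into distinct patterns. In Coch, Cwh43, Acbd7 and Cyp2j11 the lowest f/f library was replicate 1, and replicates 2 and 3 were close to each other. The level in replicate 1 was 0.229 of the mean of replicates 2 and 3 for Coch, 0.180 for Acbd7, 0.114 for Cyp2j11 and 0.483 for Cwh43. In Ecrg4 it was 1.63 of that mean and in Penk 0.987. A ratio under 0.5 was thus seen in 4 of the 6 genes, against 4.15% of the 15379 symbols with a ratio, and in 6.51% of the 768 called lower. A ratio under 0.25 was seen in 3 of the 6, against 1.38% of those symbols. With 3 f/f libraries no correlation can be given.

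Within d/d the highest library was replicate 1 for 4 of the 6 genes, Coch, Cwh43, Cyp2j11 and Penk. The share of all symbols highest in that library was not computed, so this count cannot be read as a shared pattern. Cyp2j11 was above 0 in d/d replicate 1 alone, on 2.00 implied fragments. The ratio of d/d replicate 1 to the mean of d/d replicates 2 and 3 was 4.23 for Coch, 2.21 for Penk and 1.87 for Cwh43, but 0.887 for Ecrg4 and 0.287 for Acbd7. Coch and Acbd7, alike in f/f, thus had opposite d/d ratios. The d/d levels of both were 2.29 FPKM or less. Those of the short Acbd7 transcript were 1.12 FPKM at most and rest on too few fragments to order the libraries.

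Profiles over all 6 libraries, each centred on its own mean of log2(FPKM + 1), were then compared. Among the 15 pairs of the 6 genes, Acbd7 and Cyp2j11 were closest, with a root mean square difference of 0.51. Coch and Cwh43 followed at 0.63, and Cwh43 and Acbd7 at 0.65. Ecrg4 and Penk differed by 0.70. Cwh43 and Ecrg4, at 0.75, were closer than Coch and Cyp2j11, at 0.87, so the distances did not split the 6 genes as the f/f ratios did. Coch and Penk, at 1.54, were the pair farthest apart. These distances mix the size of the fall, which the choice used, with the variation inside the groups, which it did not.

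Each gene was then set beside the named genes nearest to it by that distance. Npl was nearest to both Acbd7 (0.28) and Coch (0.55), at 27.5, 178 and 160 FPKM in the f/f libraries and 2.44, 2.93 and 3.09 in the d/d libraries. Coch was followed by Cwh43 and by Lrp2, an endocytic receptor. Acbd7 was followed by Slc6a14, an amino acid transporter, and by Ano2, a calcium-activated chloride channel.

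Cyp2j11 had the closest match of all 6, Ano2, at 0.12, then Slc6a14 (0.19) and the dopamine receptor gene Drd4 (0.19). Ano2 was at 3.42, 22.5 and 24.5 FPKM in the f/f libraries, with 0.0474 in d/d replicate 1 and the other d/d libraries listed at 0. In all 3 of these genes the lowest f/f library was replicate 1, as in Cyp2j11. Cwh43 was nearest to S100g (0.32), which encodes a calcium-binding protein, Gstm7 (0.40), a glutathione transferase, and Wfdc15b (0.50).

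Ecrg4 was nearest to Il13ra2 (0.40), the decoy receptor for interleukin-13, Hif3a (0.45) and Wfdc15b (0.54). Il13ra2 was at 7.47, 5.12 and 7.21 FPKM in the f/f libraries, with replicate 2 the lowest as in Ecrg4. Hif3a and Wfdc15b were instead lowest in f/f replicate 1, at 0.801 and 0.719 of the mean of the other f/f libraries, where Ecrg4 was highest. Penk was nearest to Zcchc18 (0.19), with Crip1 (0.33) also among its 3 nearest. Zcchc18 was at 31.7, 36.3 and 36.3 FPKM in the f/f libraries and at 9.27, 2.55 and 5.16 in the d/d libraries, with d/d replicate 1 the highest d/d library, as in Penk.

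**Figure D2:**
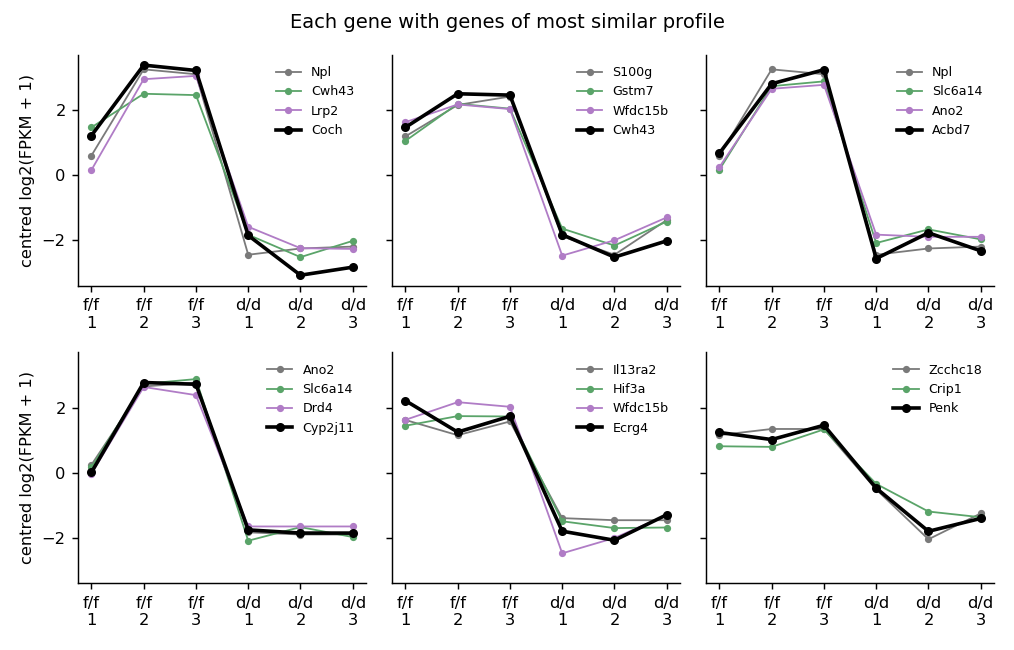
Centred log2(FPKM + 1) of each of the 6 genes (thick black line) and of the genes with the most similar profile (thin lines, 3 for each gene and 2 for Penk) in the 6 libraries. The lines for Coch, Acbd7 and Cyp2j11 rise steeply from f/f replicate 1 to the other f/f libraries, and those for Ecrg4 and Penk do not.

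Hoxa10 varied among f/f libraries in the way that the first 4 genes did. It was at 3.48, 26.5 and 25.1 FPKM in the f/f libraries and at 4.24, 9.47 and 12.4 in the d/d libraries. Replicate 1 was the lowest library in both groups, and the groups overlapped. Its ratio of f/f replicate 1 to the other f/f libraries was 0.135, between those of Cyp2j11 and Acbd7. The genotype difference was -0.71 on the log2 scale (95% interval -2.46 to 1.04, limma adjusted p = 0.556).

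The neighbouring Hoxa9 showed the same low value in f/f replicate 1, at 20.0, 73.6 and 64.6 FPKM in the f/f libraries. In d/d it was at 22.7, 23.2 and 26.5, so all d/d libraries were near the level of f/f replicate 1. Its difference was -0.90 (95% interval -1.98 to 0.18, limma adjusted p = 0.240), and without f/f replicate 1 it was -1.48 (limma adjusted p = 0.00327; up to 0.513 over the other alternatives). For Hoxa10 the difference without f/f replicate 1 was -1.57 (limma adjusted p = 0.0541), and without both replicates numbered 1 it was -1.18 (limma adjusted p = 0.0190; up to 0.873 over the other alternatives).

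Some regional genes were instead higher in f/f replicate 1. Wt1, which marks the epithelium near the ovary, was at 94.0, 51.3 and 45.9 FPKM in the f/f libraries, a ratio of 1.93. Pax8, a factor of the secretory lineage, had a ratio of 1.68, and Ecrg4, at 1.63, varied in this direction. The likeness rests on f/f replicate 1, as Ecrg4 was lowest in f/f replicate 2 and both Wt1 and Pax8 in f/f replicate 3. Pax2, which marks the epithelium nearer the uterus, had a ratio of 0.753, Hoxd9 0.323, Hoxd10 0.548, Wnt7a 0.346 and Emx2, expressed along the tract, 1.04. Foxa2, a uterine gland factor, was low, at 7.17, 2.66 and 0.554 FPKM in the f/f libraries. In the d/d libraries it was at 0.640, 9.57 and 3.86. Within each group its libraries stood in the order of the multiciliated marker sums given below, a likeness seen afterwards and not tested.

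Of the 14 regional genes listed, 10 were tested, and 0 rose and 0 fell with genotype (limma, adjusted p under 0.05), where 11% of all symbols tested were called. At an unadjusted p under 0.05 the count was also 0. The median difference of the 10 was -0.15, against -0.01 for all symbols tested. Hoxa13 was listed at 0 in all 6 libraries and Hoxa11 reached 1.05 FPKM at most.

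**Figure D3:**
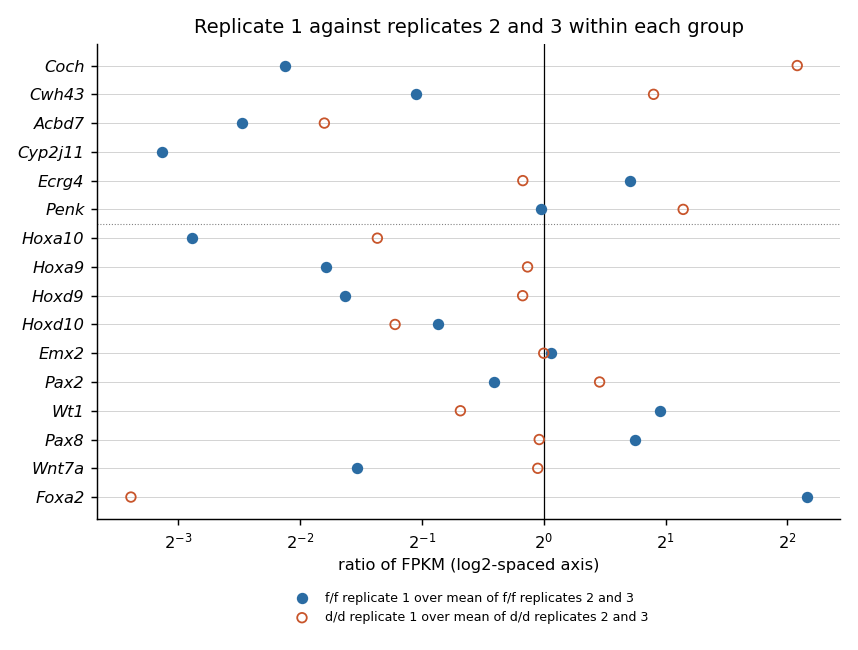
Ratio of the FPKM of replicate 1 to the mean of replicates 2 and 3, within f/f (filled) and within d/d (open), on a logarithmic axis, for the 6 genes above the dotted line and the 10 tested regional genes below it. Coch, Cwh43, Acbd7 and Cyp2j11 share low f/f ratios with Hoxa10, Hoxa9, Hoxd9 and Wnt7a. Ecrg4 lies with Wt1 and Pax8 in this f/f ratio, which rests on 1 library, f/f replicate 1. Cyp2j11 has no d/d ratio because replicates 2 and 3 are listed at 0.

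Marker genes of other cell types also set f/f replicate 1 apart. The 5 smooth muscle markers summed to 1516 FPKM there, against 3739 and 3746 for the other f/f libraries and 3438, 2096 and 2782 in the d/d libraries. The 5 multiciliated markers summed to 266, 133 and 83.1 FPKM in the f/f libraries and to 34.5, 147 and 98.7 in the d/d libraries. All 5 of the smooth muscle markers and all 5 of the multiciliated ones were above 0 in every library. Markers of secretory epithelium summed to between 4319 and 5783 FPKM in f/f and between 2732 and 5117 in d/d. Ovgp1 made up nearly all of these sums, with 5690 FPKM in f/f replicate 1 and 2651 in d/d replicate 2. They thus describe that gene more than the cell type. The part that tissue makeup plays in the within-group patterns was not tested.

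A pair of libraries with a like level of Hoxa10 was compared next. Hoxa10 was at 3.48 FPKM in f/f replicate 1 and 4.24 in d/d replicate 1, and Hoxa9 at 20.0 and 22.7. In other markers the same libraries were far apart, with multiciliated sums of 266 and 34.5 FPKM, the highest and the lowest of the 6 libraries, and smooth muscle sums of 1516 and 3438. Wt1 was 2.68-fold and the multiciliated factor Foxj1 7.85-fold higher in f/f replicate 1. Between these libraries Coch was 11.6-fold lower in d/d, Cwh43 17.4-fold, Acbd7 47.1-fold, Ecrg4 16.7-fold and Penk 3.32-fold. Acbd7 was at 0.224 FPKM in d/d replicate 1, on a transcript of 534 nt, so its fold rests on few fragments and is uncertain. Cyp2j11 was at 2.65 against 0.0700 FPKM. The direction was fixed beforehand, since these genes, picked for their fall, were lower in every d/d than in every f/f library. Each of these values compares 1 library with 1 library and has no replicate check, and the part of the marker differences in them was not tested.

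Between the remaining libraries, which held more Hoxa10 in f/f (26.5 and 25.1 FPKM) than in d/d (9.47 and 12.4), most of the ratios were larger. The mean of f/f replicates 2 and 3 was 215-fold that of d/d replicates 2 and 3 for Coch, 67.2-fold for Cwh43, 75.2-fold for Acbd7 and 7.43-fold for Penk. The value for Acbd7 again rests on few d/d fragments. For Ecrg4 it was 9.10-fold, less than between the replicates numbered 1. With log2(FPKM + 1) of Hoxa10 as a covariate in the fit, the genotype term was -4.83 for Coch, -4.07 for Cwh43, -3.90 for Acbd7, -3.05 for Cyp2j11, -3.59 for Ecrg4 and -2.57 for Penk. It became smaller for the first 4 genes and slightly larger for Ecrg4 and Penk, and all 6 stayed negative. Because the genes were picked for their fall, these ratios and signs are a description and no test of a link to Hoxa10. How far the ratios differ between the library pairs follows from the within-group ratios given above. The covariate terms rest on 6 libraries and are given without a test.

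**Figure D4:**
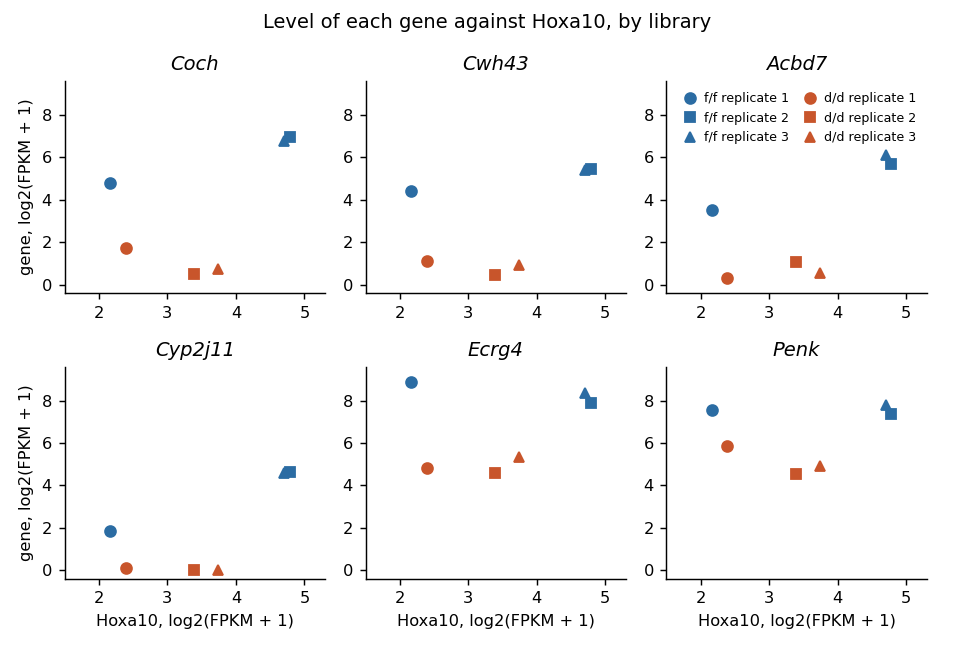
Level of each gene (vertical) against Hoxa10 (horizontal), both as log2(FPKM + 1), in the 6 libraries, with f/f in blue and d/d in orange. At the left of each panel f/f replicate 1 and d/d replicate 1 have nearly the same Hoxa10 level. The f/f library is the higher of the pair for all 6 genes, as in any such pair, because the genes were picked for their fall.

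Of the macrophage and myeloid markers 4 of 4 rose (limma adjusted p under 0.05), where 6.04% of all symbols tested were called higher. They summed to 231 to 269 FPKM in f/f and 619 to 826 in d/d. Endothelial markers summed to 119 to 122 FPKM in f/f and 141 to 184 in d/d, and stromal markers to 1565 to 1850 in f/f and 1418 to 1999 in d/d. Markers of neurons and glia summed to 8.41, 17.8 and 14.4 FPKM in the f/f libraries and to between 6.44 and 10.5 in d/d, and adipocyte markers to 11.7 in f/f replicate 1 and at most 1.84 in any other library. Mesothelial markers summed to between 6.81 and 48.5, ovarian ones to between 27.7 and 54.5, and red blood cell ones to between 37.8 and 106 FPKM over all libraries. Uterine gland markers stayed between 1.51 and 11.5 FPKM, with the gland protease Prss28 listed at 0 in all 6. Of the 5 smooth muscle markers 1 fell, of the 4 stromal ones 1 rose and 1 fell, and of the 4 endothelial ones 1 rose. The other lists had 0 called. At this threshold 6.04% of all symbols tested were higher and 4.97% lower. A call of 1 gene in such a list does not describe its cell type. The part these cell types play in the fall of the 6 genes was not tested.

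The relatives of the 6 genes were examined next. The lists of relatives held 48 symbols present in the tables, of which 33 were tested. Of these, 3 rose and 2 fell, which is 15.2% against 11% of all symbols tested, and the median difference was 0.05. At an unadjusted p under 0.05, 6 were higher and 7 lower. The share of all symbols at that limit was not computed, so these counts cannot be read as an excess. Each list below held 3 to 8 tested genes, so 1 call in a list is too few to compare with the 11% of all symbols.

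For the opioid system, Penk was the only peptide precursor above the filter. The precursors Pdyn, Pomc and Pnoc reached at most 1.45 FPKM in any library, and the receptors Oprm1, Oprd1, Oprk1 and Oprl1 at most 0.469. Of 6 tested genes for processing and breakdown, 1 rose and 0 fell. It was Anpep, a surface aminopeptidase that also degrades enkephalins, which went from 87.1 ± 16.7 to 962 ± 236 FPKM (log2 difference 3.44, SE 0.22, limma adjusted p = 0.0026; SD, n = 3 each). It was higher in 3 of 3 d/d libraries than in any f/f library. Cpe, which trims peptide precursors, was at 313 ± 18.3 and 380 ± 59.2 FPKM (limma adjusted p = 0.251; SD, n = 3 each), and Mme, which encodes neprilysin, or enkephalinase, at 47.1 ± 5.37 and 59.2 ± 9.96 (limma adjusted p = 0.225). The median difference of the 6 tested was 0.38. At an unadjusted p under 0.05, Anpep, Ctsl and Ace were higher and 0 were lower, with the share of all symbols not computed. Cpe and Ctsl were also higher in every d/d than in every f/f library, as were 18.1% of all symbols tested.

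Among acyl-CoA-binding proteins, 0 of 6 tested rose and 1 fell. Acbd4 went from 27.0 ± 0.863 to 18.3 ± 1.90 FPKM (log2 difference -0.54, SE 0.11, limma adjusted p = 0.0283; SD, n = 3 each), and it passed only without replicate 1 of either group when single libraries were left out (limma adjusted p 0.0394 to 0.113). Dbi, the abundant founding member of the family, was at 149 ± 42.9 and 134 ± 11.6 FPKM (SD, n = 3 each; log2 difference -0.11, 95% interval -0.63 to 0.42, limma adjusted p = 0.788).

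In the Cyp2j family Cyp2j11 was the only member above 10 FPKM in any library. Cyp2j6 was at 4.58 ± 0.597 and 5.89 ± 0.172 FPKM (limma adjusted p = 0.194; SD, n = 3 each), and Cyp2j9 at 2.59 ± 0.620 and 1.86 ± 0.463 (limma adjusted p = 0.359). Cyp2j13, below the filter, was at 1.06, 1.10 and 0.84 FPKM in the f/f libraries and listed at 0 in all 3 d/d libraries, and unlike Cyp2j11 it was not low in f/f replicate 1. The epoxide hydrolases Ephx1 and Ephx2, which break down the epoxides, did not pass with all libraries. Ephx1 was at 98.5 ± 15.9 and 102 ± 16.0 FPKM and Ephx2 at 4.95 ± 0.700 and 9.10 ± 3.49 (limma adjusted p = 0.877 and 0.162; SD, n = 3 each). Of the 4 tested in this list, 0 rose and 0 fell, and Ephx2 alone had an unadjusted p under 0.05. Without d/d replicate 2 the difference of Ephx2 went from 0.70 to 1.03 (limma adjusted p = 0.0368; up to 0.355 over the other alternatives).

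In the GPI anchor list 1 of 8 tested genes rose and 0 fell. Pigk, the catalytic subunit of the transamidase that attaches the anchor, went from 22.1 ± 1.31 to 44.5 ± 1.56 FPKM (log2 difference 0.98, SE 0.09, limma adjusted p = 0.0043; SD, n = 3 each), and it kept the call whichever single library was left out. Pgap2, which remodels the anchor lipid in mammals, was at 46.8 ± 8.80 and 36.0 ± 1.55 (limma adjusted p = 0.156; SD, n = 3 each).

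Of 6 tested genes with the LCCL domain of cochlin or for its cleavage, 0 rose and 1 fell. The median difference of the 6 was -0.41, and 4 of them were lower at an unadjusted p under 0.05 (Vit, Dcbld2, Crispld1 and Crispld2), of which Dcbld2, Crispld1 and Crispld2 were lower in every d/d than in every f/f library. Of all symbols tested 17.4% were lower in every d/d library, and the share at the unadjusted limit was not computed. Crispld2, which encodes a secreted protein, went from 90.2 ± 17.4 to 49.5 ± 7.17 FPKM (log2 difference -0.84, SE 0.18, limma adjusted p = 0.0322; SD, n = 3 each), and it kept the call only without f/f replicate 1 (limma adjusted p 0.0129 to 0.115 over single libraries left out). Vit, which encodes vitrin, the closest relative of cochlin, was at 11.6, 24.2 and 24.7 FPKM in the f/f libraries and at 10.6, 11.8 and 12.6 in the d/d libraries (limma adjusted p = 0.167). It shared with Coch the low value in f/f replicate 1.

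Of 3 innate immune receptor genes described for Ecrg4 peptides 1 rose and 0 fell. Cd14, a co-receptor for bacterial lipopolysaccharide, went from 33.9 ± 6.35 to 64.9 ± 9.12 FPKM (log2 difference 0.93, SE 0.17, limma adjusted p = 0.0229; SD, n = 3 each), beside the higher macrophage and myeloid markers, whose part in it was not tested. It kept the call only on leaving out f/f replicate 1 or else d/d replicate 2 (limma adjusted p 0.0251 to 0.0768). Tlr4 was at 14.4 ± 3.19 and 18.5 ± 2.88 FPKM (limma adjusted p = 0.245; SD, n = 3 each).

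The 6 genes lie at different places, on chromosomes 1, 2, 4, 5 and 12, with Cyp2j11 and Penk far apart on chromosome 4. For each, the nearest tested protein-coding gene on either side was examined. Of the 12 neighbours 2 rose and 2 fell past the threshold, which is 33.3% against 11% of all symbols tested.

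Next to Acbd7 both sides moved, in opposite directions. Olah (chromosome 2, 3341982 to 3397210, minus strand), an enzyme that ends fatty acid synthesis early, lies 0.989 kb beyond Acbd7. It was at 2.08, 11.5 and 11.8 FPKM in the f/f libraries and at 0.334, 0.120 and 0.243 in the d/d libraries (log2 difference -2.68, SE 0.55, limma adjusted p = 0.0289). Its f/f replicate 1 was 0.179 of the mean of the other f/f libraries, nearly the 0.180 of Acbd7. The genes converge on opposite strands, and the sources used here do not say whether counting used strand, so reads running past an end cannot be assigned. Rpp38, a ribonuclease P subunit gene 3.52 kb on the other side, went from 7.19 ± 0.644 to 12.1 ± 1.16 FPKM (limma adjusted p = 0.0224; SD, n = 3 each).

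On the lower side of Cyp2j11, 269 kb away and beyond Cyp2j13, Hook1, which encodes a microtubule-linked adaptor, went from 32.8 ± 12.2 to 9.49 ± 0.802 FPKM (log2 difference -1.62, SE 0.29, limma adjusted p = 0.0194; SD, n = 3 each). It too was lowest in f/f replicate 1, at 18.8 FPKM against 40.1 and 39.6. At 4.39 kb from Ecrg4, Uxs1, an enzyme that makes UDP-xylose, went from 10.02 ± 1.06 to 15.6 ± 1.33 FPKM (limma adjusted p = 0.0314; SD, n = 3 each). Olah, Rpp38 and Hook1 kept their calls only without f/f replicate 1 when single libraries were left out, with highest limma adjusted p of 0.105, 0.0935 and 0.0726, and Uxs1 lost it whichever single library was left out (0.0534 to 0.119).

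The neighbours of Coch, Cwh43 and Penk did not pass. Strn3, 3.86 kb beyond Coch, was at 29.6 ± 2.19 and 24.3 ± 0.791 FPKM (limma adjusted p = 0.123; SD, n = 3 each) and Scfd1 on its other side at 29.6 ± 1.84 and 25.4 ± 3.40 (limma adjusted p = 0.285). Beside Cwh43, Dcun1d4 had a log2 difference of -0.44 (limma adjusted p = 0.0712) and Ociad2 of -0.33 (limma adjusted p = 0.139). Beside Penk, at 160 and 624 kb, the model gene Gm11808 had a difference of 0.40 and Impad1 of 0.11 (limma adjusted p = 0.179 and 0.504). Nck2, on the far side of Ecrg4, had one of 0.34 and Cyp2j6, beside Cyp2j11, of 0.31 (limma adjusted p = 0.0869 and 0.194).

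**Figure D5:**
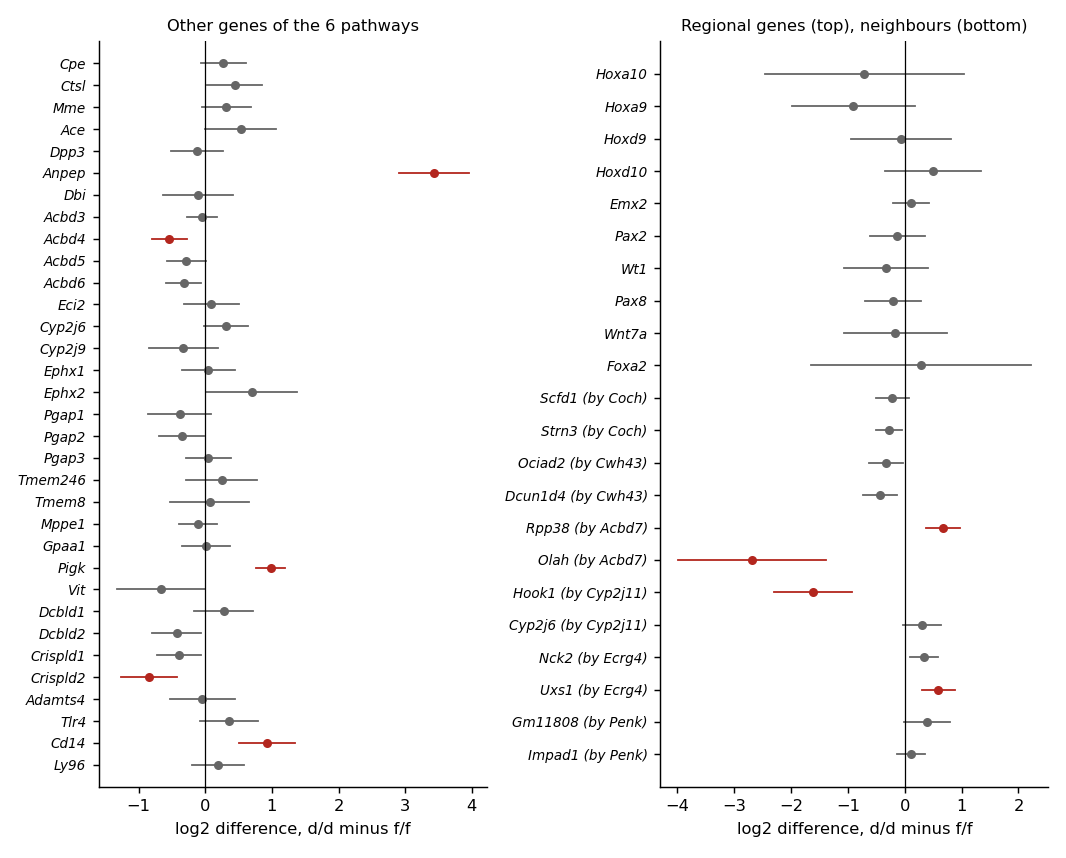
Log2 difference, d/d minus f/f, with its 95% interval from limma, for the tested relatives of the 6 genes (left) and for the regional genes and chromosomal neighbours (right), in red where the limma adjusted p is under 0.05. Anpep stands far to the right at 3.44, Olah and Hook1 to the left at -2.68 and -1.62, and most others lie within 1 of 0.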

How the data were processed

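The members and the gene lists were chosen with earlier results of these data known. The authors deposited 1 table per library, with 55483 Ensembl genes each, in a unit read here as FPKM because the values are decimals with differing totals and Cufflinks 2.2.1 is named, with HISAT2 2.2.1, per the submitters' processing notes. The builds mm9 and mm10 are named there with no role, and the sources used here name neither the annotation nor a strand setting. Coordinates are from GENCODE M21 (GRCm38), which held 99.5% of the identifiers, and start regions from RefSeq. Rows sharing a symbol (114 symbols) were summed. Symbols with mean FPKM of at least 1 entered a linear model of log2(FPKM + 1) fitted by limma 3.58.1 under R 4.3.3 (eBayes with trend, genotype only, two-sided, Benjamini-Hochberg over 15438 symbols, threshold 0.05); the fit was tested on simulated data. Folds are ratios of mean FPKM. In single-transcript genes under 0.1 FPKM, 91.6% to 95.2% of the 304 to 395 lowest values lay within 1% of a common step, read as 1 fragment; other values were not turned into counts. Intervals from fragments would cover counting error only. P-values set the difference between the groups against the spread between libraries of a group, which may be technical.

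Named by rule were the 6 genes, Mettl3, tested regional genes, relatives past the threshold or else the 2 most abundant of a list, the nearest tested coding neighbours, and the 3 genes of most similar profile (model names and small RNAs left out; 1 gene near Penk is not reported here). Npl, by its rank, and Cpe, Mme, Ctsl, Ace, Dbi, Cyp2j6, Cyp2j9, Cyp2j13, Pgap2, Vit, Dcbld2, Crispld1, Tlr4, Foxj1, Ovgp1 and the genes named as low or listed at 0 were added after their values were seen. The same holds for Vwf, Pecam1, Cdh5 and Kdr. The alternatives tried were quantile normalization, a pseudocount of 0.1, no filter on low values, rescaling to protein-coding nuclear genes, single libraries or both replicates 1 left out, a replicate block and Hoxa10 as a covariate.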

Additional observations from a re-analysis of the deposited data

How the results depend on the processing

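The log2 differences of the 6 genes stayed below 0 under all 13 alternatives. This was largely fixed in advance, as the genes were picked for their fall and their groups do not overlap. Their median of -3.96 became -5.55 with a pseudocount of 0.1 and ranged from -4.59 to -3.71 when single libraries were left out. Of all symbols tested, 1701 were called (933 higher, 768 lower). Without the filter there were 1107 (599 higher, 508 lower), and when single libraries were left out, 308 to 1795 (184 to 942 higher, 124 to 853 lower), with the lowest counts without f/f replicate 2 and over 1.5 times fewer calls in all unless f/f replicate 1 was the one left out. Same-numbered libraries had correlations of -0.22, -0.06 and 0.00 of their deviations. Differently numbered ones ranged from -0.28 to 0.28, so with 3 libraries a group a pairing was neither shown nor excluded. With a replicate block 276 were called (174 higher, 102 lower). Of the relatives, 5 were called, against 2 with the replicate block, 3 with Hoxa10 as a covariate and 2 to 7 with libraries left out. Of the regional genes 0 were called, against 2 (Hoxa10 and Hoxa9) without both replicates numbered 1 and 0 to 1 without single libraries.

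Signs changed for genes that did not pass: with Hoxa10 as a covariate Hoxd9 was 0.26, Wnt7a 0.094 and Ephx1 -0.059. With libraries left out, Hoxd9 ranged from -0.52 to 0.20, Emx2 from -0.017 to 0.20, Pax2 from -0.40 to 0.055, Wt1 from -0.52 to 0.21, Pax8 from -0.35 to 0.056, Wnt7a from -0.58 to 0.11, Foxa2 from -0.35 to 1.59 and Ephx1 from -0.044 to 0.18. The cause of these changes was not tested. With 3 libraries a group, and 2.00 fragments behind the only d/d value of Cyp2j11 above 0, the levels of the d/d libraries near 0 cannot be ordered.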
